A study of Mus musculus with 40 samples.

Results

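A set of 7 cholesterol synthesis genes was followed in single preimplantation mouse embryos given siRNA against Rif1. They are Hmgcs1, Idi1, Fdps, Sqle and Dhcr7, which encode enzymes, and Insig1 and Srebf2, which encode regulators. The 7 genes were taken by name as a list, without reference to a threshold, from 55487 mouse gene entries. All 7 passed the filter on low counts, as did 11844 genes in all.

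Cells build cholesterol from acetyl-CoA through the mevalonate pathway, whose isoprenoid intermediates also feed protein prenylation and dolichol synthesis. SREBP-2, the transcription factor encoded by Srebf2, is held in the endoplasmic reticulum by INSIG proteins when sterols are plentiful and activates the pathway's genes when sterols are scarce. The oocyte stores transcripts that are degraded in early cleavage while the embryonic genome takes over.

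The embryos carried the cross label (C57BL/6J xCBA) x DBA/2J, in which the number of the last strain rose by 1 from embryo to embryo up to DBA/41J. Zygotes were injected 17 to 18 h after hCG with 20 µM control siRNA (siCon) or Rif1 siRNA (siRif1), and were grown in KSOM medium at 37 °C under 5% CO2. The 4-cell embryos, 7 siCon and 13 siRif1, were taken 63 h after hCG, and the 8-cell embryos, 8 siCon and 12 siRif1, at 70 h. Every group therefore received an injection and an siRNA, and Rif1 was lowered by siRNA and not deleted. The labels give no litter, day or batch, so the p-values measure the spread between these embryos. In RNA from a whole embryo, fewer cells expressing a gene and less RNA per cell cannot be told apart.

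Libraries held 704863 to 8890551 mouse gene counts, with a median of 3186068.5. Of 12 preimplantation markers, 7 were detected in all 40 embryos, and the summed level of the 12 was 1247 to 4611 CPM. CPM is the count scaled to a common library total of mouse gene counts after TMM normalisation. Of 15 cumulus and granulosa markers, 4 (Ptx3, Fshr, Inhba and Hsd3b1) were at 0 in every embryo, and the summed level of the list was at most 17.8 CPM. The libraries that stood apart were siCon 4-cell embryos 3 and 7, in which the summed level of 15 maternal oocyte markers was 1855 and 3863 CPM, against 243 to 916 CPM in the other 5 embryos of that group. The calls that rest on these 2 embryos are given with and without them.

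The annotated promoters of the genes are shown first because SREBP-2, itself in the list, acts through short promoter elements. RefSeq windows on GRCm38.p6, 300 bases long from 250 before a transcript start to 50 after it, were found for 5 of the 7 genes, 7 windows in all. Sqle and Fdps had no entry. Both strands were searched for the sterol regulatory element TCACNCCAC, the NF-Y box CCAAT, the Sp1 box GGGCGG and the E-box CACGTG, and no 2 matches overlapped. The Hmgcs1 window was the only one of the 7 with a sterol regulatory element, at -137 from the start. That element was in 408 of 32851 mouse promoter windows, or 1.24%, while the NF-Y box was in 37.4%, the Sp1 box in 35.7% and the E-box in 7.15%. The window of Dhcr7 at its most downstream listed start is printed beside it, because Dhcr7 passed the threshold both between siRNAs and between stages. Capitals mark the sterol regulatory element and the NF-Y boxes, read on either strand (ATTGG is CCAAT on the other strand).
Hmgcs1, chr13:119690101-119690400, plus strand: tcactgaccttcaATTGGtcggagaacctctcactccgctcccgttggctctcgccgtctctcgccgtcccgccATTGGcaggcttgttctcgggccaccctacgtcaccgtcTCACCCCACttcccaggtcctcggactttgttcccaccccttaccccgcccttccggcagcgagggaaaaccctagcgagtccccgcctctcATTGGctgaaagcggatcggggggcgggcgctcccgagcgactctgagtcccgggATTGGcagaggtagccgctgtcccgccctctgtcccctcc
Dhcr7, chr7:143829964-143830263, plus strand: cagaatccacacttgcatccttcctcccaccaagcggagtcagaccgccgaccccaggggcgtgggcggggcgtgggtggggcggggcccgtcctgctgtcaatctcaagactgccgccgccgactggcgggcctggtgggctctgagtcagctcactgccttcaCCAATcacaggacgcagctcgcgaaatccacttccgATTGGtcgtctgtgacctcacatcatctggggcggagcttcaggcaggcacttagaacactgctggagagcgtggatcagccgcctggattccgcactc
The Hmgcs1 window held 4 NF-Y boxes and 3 Sp1 boxes. This Dhcr7 window held 2 NF-Y boxes and 3 Sp1 boxes, and the other 2 Dhcr7 windows held no NF-Y box. The Idi1 window held 2 NF-Y boxes, and those of Insig1 and Srebf2 held 1 each. These matches describe letters in a window and show no binding.

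Rif1, the siRNA target, was lower in the siRif1 embryos at the 4-cell stage. Its level was 302 to 568 CPM in siCon embryos (median 367) and 88.3 to 381 CPM in siRif1 embryos (median 149). Of the 13 siRif1 embryos, 11 lay below every control. On the log2 scale the fitted difference was -1.26 (SE 0.24, adjusted p = 0.0064, edgeR quasi-likelihood test with Benjamini-Hochberg adjustment). Without siCon 4-cell embryos 3 and 7 the difference was -1.35 with an adjusted p of 0.051 (edgeR). At the 8-cell stage Rif1 was at 262 to 382 CPM in siCon embryos and 94.6 to 410 CPM in siRif1 embryos. Of the 12 siRif1 embryos, 9 lay below every control and 1 lay above every control. The log2 fold change of -0.52 (SE 0.24) did not pass (adjusted p = 0.999, edgeR).

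The first comparison asks whether the pathway's genes differed between siRif1 and siCon embryos at the 4-cell stage. Of the 7 genes, 1 passed the threshold of an adjusted p below 0.05, Dhcr7, which was lower in siRif1 embryos. Over all tested genes 0.566% passed in either direction, with 0.127% higher and 0.439% lower. The other 6 genes had log2 fold changes between -0.44 and 0.17, and the median of the 7 was -0.21, against -0.01 for all tested genes. Without siCon 4-cell embryos 3 and 7 the median of the 7 was -0.09. The Dhcr7 difference rested on 2 control embryos.

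Dhcr7 encodes the reductase that turns 7-dehydrocholesterol into cholesterol, the closing step of the Kandutsch-Russell route. The gene (ENSMUSG00000058454, chr7:143823145-143848410, GRCm38) ranged from 5.90 to 196 CPM in 4-cell siCon embryos, with a median of 16.7. In 4-cell siRif1 embryos it ranged from 4.92 to 24.8 CPM, with a median of 14.5. The groups overlapped: 12 of the 13 siRif1 embryos lay inside the control range and 1 lay below it. The 2 high controls were embryos 3 and 7, at 196 and 138 CPM, while the other 5 controls were at 5.90 to 23.6 CPM. The log2 fold change was -1.92 (SE 0.42, adjusted p = 0.018, edgeR). Without embryo 3 or without embryo 7 the call was lost, and over all fits that left out 1 embryo the value ran from -2.12 to -1.16. Without both it was 0.27 (SE 0.31, adjusted p = 0.94, edgeR), with the sign turned. With all embryos kept, the call was lost with the direction unchanged when the 4-cell groups alone were fitted (-1.92, adjusted p = 0.21, edgeR) and with ERCC spike-in totals as size factors (-1.39, adjusted p = 0.60).

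Embryos 3 and 7 were also the 2 highest controls for the maternal oocyte markers, as given above. Their 2-cell stage markers, 8 genes in all, summed to 148 and 117 CPM, against 5.16 to 101 CPM in the other 5 controls. The preimplantation markers summed to 2196 and 1247 CPM, against 1899 to 4017 CPM in the others. In 4-cell siRif1 embryos the 2-cell marker sum was 2.86 to 182 CPM, a range that holds the values of embryos 3 and 7. The maternal sum there was 199 to 484 CPM. Of the 12 maternal markers that could be tested, 5 were lower than in siCon embryos (edgeR), where 0.439% of all tested genes were. Without embryos 3 and 7 no tested gene was called lower (edgeR), these markers included. Across the 40 embryos, the Pearson r between deviations of Dhcr7 and of the maternal sum from their group means was 0.39, a description over embryos of 4 groups. It was -0.28 over the 38 embryos without embryos 3 and 7, so its sign rests on them. The part of maternal transcripts in the Dhcr7 difference was not tested.

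**Figure D1:**
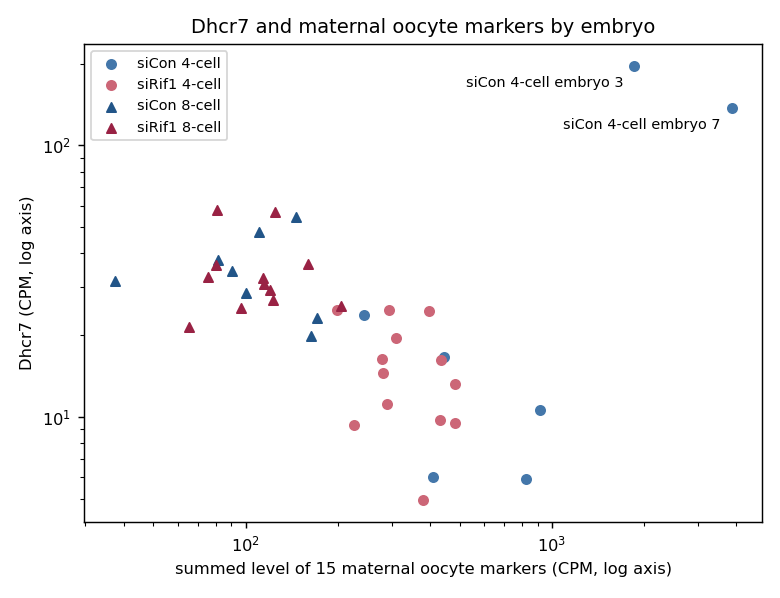
Level of Dhcr7 (CPM, log axis) against the summed level of 15 maternal oocyte markers (CPM, log axis), 1 point per embryo, circles for 4-cell and triangles for 8-cell embryos. The siCon 4-cell embryos 3 and 7 lie apart at the upper right, with Dhcr7 at 196 and 138 CPM, and no other embryo is above 57.8 CPM.

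None of the other enzymes passed at the 4-cell stage. Hmgcs1 (ENSMUSG00000093930, chr13:119690379-119708260), the synthase that makes HMG-CoA at the head of the pathway, was at 14.0 to 42.4 CPM in siCon embryos (median 29.9) and 15.2 to 66.9 CPM in siRif1 embryos (median 29.9). Sqle, the epoxidase that carries out the first oxygen-requiring step, was at 65.8 to 166 CPM in siCon embryos (median 92.4) and 46.1 to 126 CPM in siRif1 embryos (median 84.8). Both pairs of groups overlapped over most of their range, with log2 fold changes of 0.17 (SE 0.26, adjusted p = 0.86, edgeR) for Hmgcs1 and -0.26 (SE 0.21, adjusted p = 0.69) for Sqle. Idi1 (ENSMUSG00000058258, chr13:8885501-8892451), the isomerase that makes dimethylallyl diphosphate, was at 2.76 to 14.5 CPM in siCon embryos (median 5.90) and 1.38 to 10.0 CPM in siRif1 embryos (median 6.74). Fdps, the synthase of farnesyl diphosphate, was at 1.56 to 12.0 CPM in siCon embryos (median 5.16) and 0 to 15.2 CPM in siRif1 embryos (median 7.12). Both again overlapped, with log2 fold changes of -0.21 (SE 0.38, adjusted p = 0.90, edgeR) for Idi1 and -0.13 (SE 0.49, adjusted p = 0.96) for Fdps. The single 0 for Fdps was in siRif1 4-cell embryo 5, the shallowest library, where 3 counts would be 4.32 CPM.

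The regulators did not pass at the 4-cell stage either. Insig1 (ENSMUSG00000045294, chr5:28071363-28078662), which retains SREBP-2 and its escort SCAP in the endoplasmic reticulum, was at 14.4 to 40.0 CPM in siCon embryos (median 26.3) and 8.49 to 44.3 CPM in siRif1 embryos (median 28.6). Srebf2 (ENSMUSG00000022463, chr15:82147181-82205379) was at 1.36 to 12.9 CPM in siCon embryos (median 6.72) and 0 to 10.2 CPM in siRif1 embryos (median 4.32). Of the 13 siRif1 embryos, 11 lay below the control median for Srebf2, but only 1 lay below every control, embryo 13, which had no count where 3 counts would be 1.02 CPM. The log2 fold changes were -0.03 (SE 0.25, adjusted p = 0.98, edgeR) for Insig1 and -0.44 (SE 0.48, adjusted p = 0.79) for Srebf2.

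**Figure D2:**
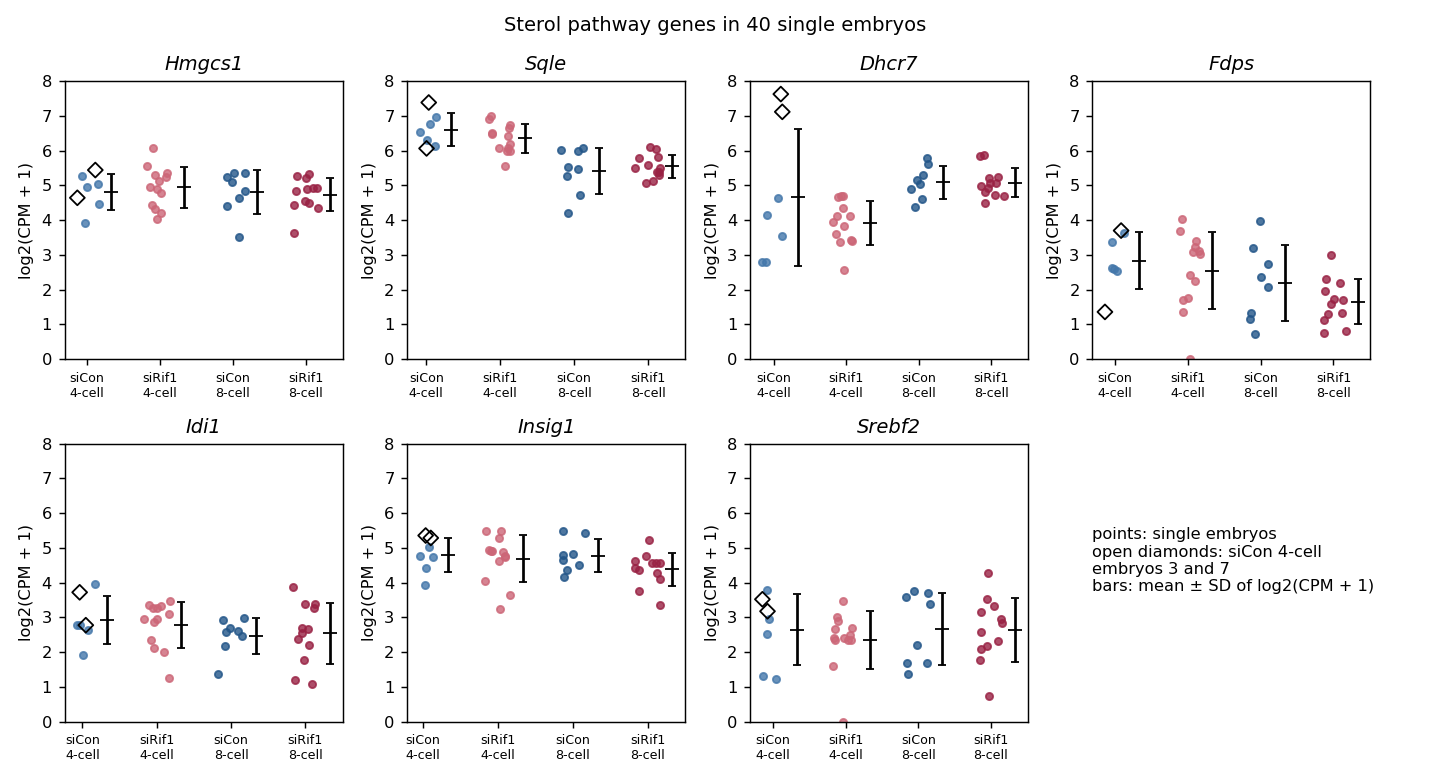
Levels of the 7 genes as log2(CPM + 1), 1 point per embryo in the 4 groups, with bars for the mean ± SD and open diamonds for siCon 4-cell embryos 3 and 7. Sqle is lower in both 8-cell groups, and the wide bar of Dhcr7 in 4-cell controls comes from the 2 diamonds.

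The same question at the 8-cell stage gave no gene of the 7 past the threshold by edgeR or by DESeq2. By edgeR 0.00844% of all tested genes passed, which is 1 gene. At an unadjusted p below 0.05, 1 of the 7 was found, Fdps, and 349 of all 11844 tested genes. The median log2 fold change of the 7 was -0.07, against 0.00 for all tested genes.

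Fdps was at 0.634 to 14.6 CPM in 8-cell siCon embryos (median 3.66) and 0.682 to 6.92 CPM in siRif1 embryos (median 2.13). All 12 siRif1 embryos lay inside the control range, and 10 of them lay at or below the control median. The fitted log2 difference was -0.999 (SE 0.50, unadjusted p = 0.0498, adjusted p = 0.999, edgeR). It was -0.50 without siCon 8-cell embryo 2, the highest control. Fdps had 1 to 51 counts per embryo at this stage.

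Insig1 was at 16.8 to 44.3 CPM in 8-cell siCon embryos (median 25.6) and 9.16 to 36.2 CPM in siRif1 embryos (median 21.6). Of the siRif1 embryos, 3 lay below every control, and the log2 fold change was -0.41 (SE 0.25, adjusted p = 0.999, edgeR). Dhcr7, the gene that passed at the 4-cell stage, was at 19.8 to 54.4 CPM in siCon embryos (median 33.1) and 21.4 to 57.8 CPM in siRif1 embryos (median 31.6). Its groups overlapped almost fully, and the log2 difference was -0.02 (SE 0.42). Sqle (0.06), Hmgcs1 (-0.11), Srebf2 (-0.07) and Idi1 (0.26) also had log2 fold changes within 1 SE of 0.

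The 8-cell against 4-cell comparisons ask how the genes moved between 63 and 70 h after hCG, within the siCon and within the siRif1 embryos, so that each group also enters an siRNA comparison. Sqle fell in both. In siRif1 embryos Dhcr7 rose and Fdps fell as well. Of the 7, 1 passed in siCon embryos and 3 of the 7 in siRif1 embryos, where 30% and 29.8% of all tested genes passed, so the shares in the list lie on both sides of the background. The maternal oocyte markers moved with stage too: their summed level was 199 to 3863 CPM in 4-cell embryos and 37.4 to 205 CPM in 8-cell embryos, and their part in these differences was not tested.

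Sqle (ENSMUSG00000022351, chr15:59315077-59331192) went from 65.8 to 166 CPM (median 92.4) in 4-cell siCon embryos to 17.4 to 66.6 CPM (median 44.2) in 8-cell siCon embryos. Of the 8 later embryos, 7 lay below every 4-cell control. The log2 fold change was -1.16 (SE 0.23, adjusted p = 0.00021, edgeR). In siRif1 embryos Sqle went from 46.1 to 126 CPM (median 84.8) to 32.6 to 67.5 CPM (median 44.3). Of the 12 later embryos, 7 lay below all 13 earlier ones, and all 12 lay below the 4-cell median. The fall was -0.83 on the log2 scale (SE 0.18, adjusted p = 0.00056, edgeR). Both calls held whichever embryo was left out.

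The Sqle result depends on the scale. Mean log2 ratios of mouse counts to ERCC spike-in counts were 4.83 and 5.00 in 4-cell and 5.69 and 5.77 in 8-cell siCon and siRif1 embryos. When libraries were scaled by their ERCC totals, the all-gene median moved to 0.49 in siCon and 0.46 in siRif1 embryos. On that scale the log2 fold changes of Sqle were -0.67 (adjusted p = 0.27, edgeR) and -0.33 (adjusted p = 0.48). Relative to that median they were -1.16 and -0.79. The fall of Sqle thus passed relative to the other transcripts and not relative to the spike-in.

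Dhcr7 in siRif1 embryos went from 4.92 to 24.8 CPM (median 14.5) at the 4-cell stage to 21.4 to 57.8 CPM (median 31.6) at the 8-cell stage. Of the 12 later embryos, 11 lay above all 13 earlier ones. The rise was 1.19 on the log2 scale (SE 0.38, adjusted p = 0.015, edgeR), and it was 1.63 (adjusted p = 0.0042) with ERCC size factors. In siCon embryos, whose 4-cell values are split between 5 embryos at 5.90 to 23.6 CPM and embryos 3 and 7, the 8-cell range was 19.8 to 54.4 CPM (median 33.1). Its log2 fold change was -0.71 (SE 0.47, adjusted p = 0.26, edgeR). Without embryos 3 and 7 it was 1.45 (SE 0.35, adjusted p = 0.0019, edgeR). The siRif1 value in the same fit was 1.17 (SE 0.23, adjusted p = 0.00012, edgeR). Embryos 3 and 7 held the highest Dhcr7 levels of their group, so leaving them out moves the siCon value up and narrows its spread. The siRif1 embryos were the same in both fits, but the spread of a gene is estimated over all groups. The SE of the siRif1 value went from 0.38 to 0.23 when embryos 3 and 7 were left out. Neither the siCon nor the siRif1 p of that fit is therefore independent support for a rise.

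Fdps (ENSMUSG00000059743, chr3:89093588-89101959) in siRif1 embryos went from 0 to 15.2 CPM (median 7.12) at the 4-cell stage to 0.682 to 6.92 CPM (median 2.13) at the 8-cell stage. All 12 later embryos lay below the 4-cell median, but none lay below every 4-cell embryo. This log2 fold change was -1.38 (SE 0.45, adjusted p = 0.016, edgeR). With ERCC size factors it was -1.10 (adjusted p = 0.084), or -1.56 once the all-gene median was subtracted. In siCon embryos Fdps went from 1.56 to 12.0 CPM (median 5.16) to 0.634 to 14.6 CPM (median 3.66), and its fitted log2 difference was -0.52 (SE 0.54, adjusted p = 0.50, edgeR). The gene shares 1124 bases with Gm43738 on the same strand, so that reads there could not be assigned to either with certainty.

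The other 4 genes did not pass between the stages. Hmgcs1 was at 10.4 to 40.3 CPM in 8-cell siCon embryos (median 30.2) and 11.5 to 38.9 CPM in 8-cell siRif1 embryos (median 27.9), with log2 fold changes against the 4-cell stage of 0.02 (SE 0.28) and -0.27 (SE 0.22). Insig1 had log2 fold changes of -0.01 (SE 0.28) in siCon and -0.39 (SE 0.22, adjusted p = 0.18, edgeR) in siRif1 embryos. Idi1 was at 1.57 to 6.98 CPM in 8-cell siCon embryos (median 5.07) and 1.12 to 13.6 CPM in 8-cell siRif1 embryos (median 5.15). Its log2 fold changes were -0.63 (SE 0.43) and -0.16 (SE 0.33), and its groups overlapped. Srebf2 was at 1.59 to 12.7 CPM in 8-cell siCon embryos (median 6.50) and 0.682 to 18.4 CPM in 8-cell siRif1 embryos (median 5.54). Its log2 fold changes were 0.06 (SE 0.54) and 0.43 (SE 0.42). Hmgcs1 shares 557 bases with the antisense gene Gm48342 and Idi1 323 bases with the antisense gene Gm48574, and the libraries do not mark strand.

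**Figure D3:**
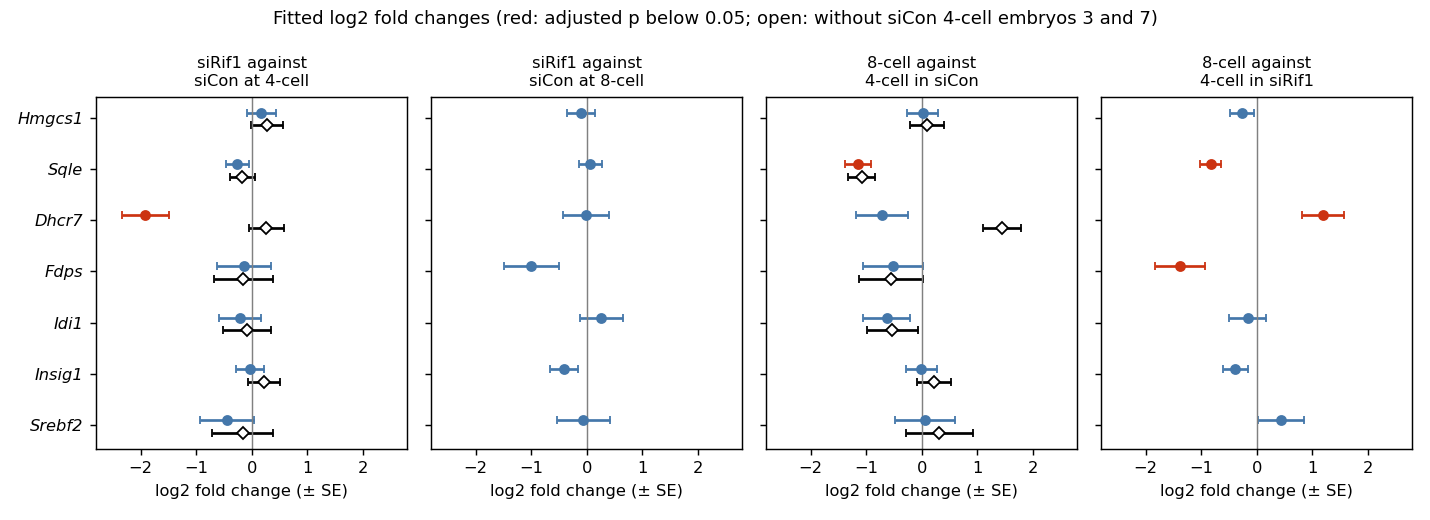
Fitted log2 fold changes ± SE of the 7 genes in the 4 comparisons, with red for an adjusted p below 0.05 and open diamonds for the fit without siCon 4-cell embryos 3 and 7. Dhcr7 moves from -1.92 to 0.27 at the 4-cell stage and from -0.71 to 1.45 between stages in siCon embryos when these embryos are left out, and Sqle stays negative in both stage comparisons.

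Whether the siRNA effect differed between the stages was tested as an interaction, the 8-cell effect minus the 4-cell effect. None of the 7 genes passed by edgeR or DESeq2, and of all tested genes 0% passed by edgeR, while 734 had an unadjusted p below 0.05 and 9 passed by DESeq2. Dhcr7 was the only one of the 7 with an unadjusted p below 0.05, with an interaction of 1.90 (SE 0.60, unadjusted p = 0.0030, adjusted p = 0.45, edgeR). Without embryos 3 and 7 its interaction was -0.28 (SE 0.40, adjusted p = 1.00). For Fdps, whose stage difference passed in siRif1 embryos alone, the interaction was -0.87 (SE 0.70, adjusted p = 0.96, edgeR), so the stage differences of the siRNA groups were not shown to differ. For Sqle it was 0.32 (SE 0.30, adjusted p = 0.96).

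Levels were compared between genes as CPM per kb of merged exon length. In 4-cell siCon embryos the order of the mean levels was Sqle (18.1 CPM per kb), Dhcr7 (9.74), Insig1 (9.07), Hmgcs1 (6.24), Idi1 (2.13), Fdps (1.67) and Srebf2 (0.91). The only neighbours that differed by more than the larger of their SDs were Hmgcs1 and Idi1. The place of Dhcr7 in that order rests on embryos 3 and 7. In 4-cell siRif1 embryos it was at 2.62 CPM per kb, behind Sqle (15.1), Insig1 (8.81) and Hmgcs1 (7.00).

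At the 8-cell stage the upper 4 genes lay closer together. In siCon embryos they ran from Insig1 at 9.01 CPM per kb through Sqle (8.13) and Hmgcs1 (6.32) to Dhcr7 at 5.97, and no neighbours among them differed by more than the larger SD. In siRif1 embryos they ran from Sqle at 8.49 through Insig1 (6.77) and Dhcr7 (5.89) to Hmgcs1 at 5.84, again within the spread. Idi1, Fdps and Srebf2 were the lowest 3 in every group, from 0.58 CPM per kb for Fdps in 8-cell siRif1 embryos to 2.13 for Idi1 in 4-cell siCon embryos.

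At these counts the 7 genes showed little shared variation from embryo to embryo. Deviations of log2 CPM from the group mean gave a median Pearson r of 0.10 over the 21 pairs of genes in 40 embryos, and 15 pairs were above 0. The highest pair was the regulators Insig1 and Srebf2, at 0.59. Next came Sqle with Fdps at 0.44, Fdps with Insig1 at 0.37 and Fdps with Srebf2 at 0.35, and the lowest pair was Hmgcs1 with Fdps at -0.26. The leading pairs differed between groups: Insig1 with Srebf2 was at 0.71 to 0.79 in 3 groups and 0.15 in 8-cell siRif1 embryos, and Sqle with Fdps at 0.41 to 0.78 in the same 3 groups and -0.39 in 8-cell siRif1 embryos. Without siCon 4-cell embryos 3 and 7 the median was 0.05 and 11 pairs were above 0. The points share library, depth and scaling, so these values are a description. Fdps, Idi1 and Srebf2 had 0 to 99 counts per embryo, and counting noise can draw their r toward 0. No other gene pairs were set beside these values, so a lack of shared control was not shown. Srebf2 had no count in siRif1 4-cell embryo 13 and Fdps none in embryo 5, so their log2 CPM there is set by the prior count. Insig1 was low in the same embryos, at 8.49 and 11.5 CPM. How far these points raise the r of the Srebf2 and Fdps pairs was not tested. Idi1 was the gene whose deviations followed the mouse to ERCC ratio most, with an r of 0.51, against -0.27 for Srebf2 and 0.29 for Sqle.

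**Figure D4:**
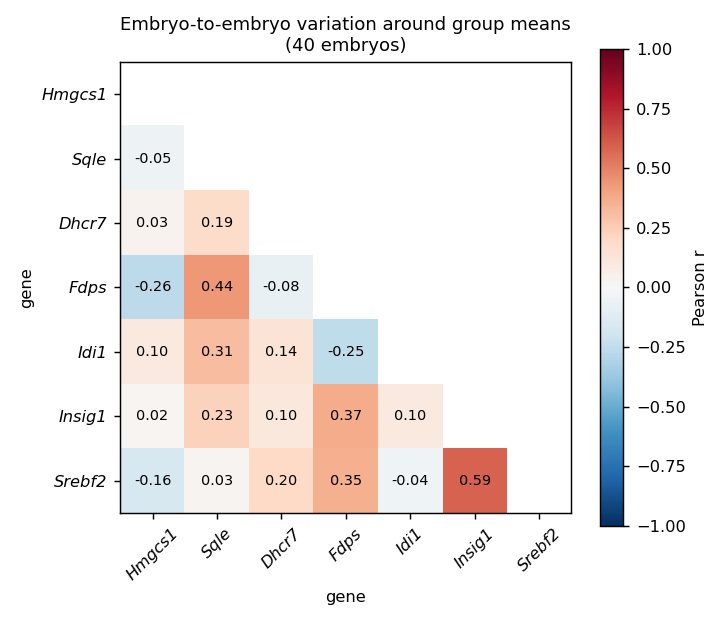
Pearson r between pairs of the 7 genes for deviations of log2 CPM from the group mean in 40 embryos, with red above 0 and blue below. The strongest cell is Insig1 with Srebf2 at 0.59, and the median of the 21 pairs is 0.10.

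Over the 40 embryos, the genes most like each member were ranked by Pearson r of log2 CPM among 7260 genes. This r pools the 4 groups and so includes the differences between stages, unlike the deviations above. Sqle was nearest to Arrdc1 (0.87) and Obox8 (0.86), and Dhcr7 to Gm5435 (0.83) and Xpnpep1 (0.80). For deviations from the group means these values were 0.74 and 0.65 for Sqle and 0.78 and 0.78 for Dhcr7. Idi1 was nearest to Plaa (0.76), and Fdps to Zfp707 (0.70) and Gm12627 (0.69). Insig1 was nearest to Snhg20 (0.56) and Fbxo28 (0.55), Srebf2 to Fat1 (0.57) and Mettl27 (0.57), and Hmgcs1 to R3hcc1l (0.51) and Zfp451 (0.50). The 7 genes themselves were left out of the ranking.

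The rest of the pathway was read from 4 lists. Between siRif1 and siCon embryos no gene of any list passed by edgeR or DESeq2 at either stage: 0 of 16 tested other sterol synthesis enzymes, 0 of 8 isoprenoid branch enzymes, 0 of 10 SREBP regulators and 0 of 13 genes of sterol uptake, transport and efflux. At the 4-cell stage the medians of these lists were -0.41, -0.07, -0.19 and -0.11, beside -0.01 for all tested genes, and without siCon 4-cell embryos 3 and 7 they were -0.10, -0.07, -0.04 and 0.02. At the 8-cell stage they were 0.03, 0.00, -0.03 and -0.05. At an unadjusted p below 0.05 there were 2 enzymes (Acat2 at -0.79 and Ebp at -0.86) and 1 isoprenoid gene (Ggps1 at -0.57) at the 4-cell stage. There was also 1 efflux gene (Abca1 at 1.61), and at the 8-cell stage there was none in any list. These genes were named after their values were seen. Of 11844 tested genes, 1320 were below that p at the 4-cell stage and 349 at the 8-cell stage. Such counts therefore do not set the lists apart.

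Between the stages, genes of sterol uptake, transport and efflux were the list with most calls. In siCon embryos 5 of 13 tested were higher and 1 lower at the 8-cell stage. In siRif1 embryos 5 were higher and 2 lower. Of all tested genes 13.7% and 14.5% were higher and 16.3% and 15.3% lower, so the lower calls are near or below the background. Stard4, a cytosolic sterol carrier, was at 0.545 to 13.2 CPM in 4-cell siCon embryos (median 3.32) and 12.9 to 96.4 CPM in 8-cell siCon embryos (median 51.8). In siRif1 embryos it was at 0 to 16.3 CPM (median 3.90) and then 20.3 to 116 CPM (median 72.0), with no overlap between the stages. Its log2 fold changes were 3.03 (SE 0.55, adjusted p = 6.9e-05, edgeR) and 3.87 (SE 0.43, adjusted p = 1.1e-08). Npc1, which moves cholesterol out of late endosomes, rose by 1.69 (adjusted p = 2.2e-05, edgeR) and 1.43 (adjusted p = 3.2e-06) on the log2 scale, and its partner Npc2 rose by 0.60 and 0.50. The efflux pump gene Abca1 (2.47 and 1.50) and Nr1h2, which encodes the oxysterol receptor LXR beta (0.43 and 0.37), were higher in both. Soat1, which esterifies cholesterol, was lower in both (-0.73 and -0.66), and the lipoprotein receptor gene Lrp1 was lower in siRif1 embryos (-1.09).

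Several of these calls lean on single embryos. Abca1 had no count in 3 of 7 siCon 4-cell embryos, and its siRif1 call was lost without any of 4-cell embryos 3, 4, 6 and 10 or 8-cell embryos 4, 6, 9 and 10. Outside embryos 3 and 7 its siCon 4-cell level was at most 2.69 CPM. That group alone could not bring Abca1 past the filter on low counts, so it was tested only through groups where it was higher. Its place among the 5 genes higher in siCon embryos carries that limit. Soat1 lost its siCon call without 4-cell embryo 2 or 3 or 8-cell embryo 1, 2, 3, 4, 6 or 7, and its siRif1 call without 4-cell embryo 2. Lrp1 lost its call without siRif1 4-cell embryo 1 or 10. Without siCon 4-cell embryos 3 and 7 together, Stard4 (3.80), Npc1 (1.70), Npc2 (0.39) and Nr1h2 (0.47) were still higher in siCon embryos, and Abca1 (2.30, adjusted p = 0.052, edgeR) was not called.

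Among the other sterol synthesis enzymes 2 of 16 were higher and 1 lower at the 8-cell stage in siCon embryos, and 2 were higher in siRif1 embryos. Over all tested genes 13.7% and 14.5% were higher and 16.3% and 15.3% lower, so these counts are near or below the background. Msmo1, the C4-methylsterol oxidase, rose in both, by 0.75 (SE 0.22, adjusted p = 0.0092, edgeR) and 0.58 (adjusted p = 0.0082) on the log2 scale. Mvd, the mevalonate diphosphate decarboxylase, rose by 1.27 (adjusted p = 0.038, edgeR) in siCon embryos, and Lss, lanosterol synthase, by 0.47 (adjusted p = 0.0068) in siRif1 embryos. Mvd lost its call without any of siCon 4-cell embryos 1 to 6 or 8-cell embryos 3, 4, 7 and 8. Its siCon 4-cell level was 0.737 to 2.95 CPM outside embryos 3 and 7, so that group alone could not bring it past the filter on low counts. Without embryos 3 and 7 together Msmo1 (0.59, adjusted p = 0.070, edgeR) was not called, and Mvd was at 2.06 (adjusted p = 0.0025).

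In the isoprenoid branch Fnta, the shared subunit of the farnesyl and geranylgeranyl transferases, rose by 0.68 in siCon embryos (adjusted p = 0.0019, edgeR) and 0.52 in siRif1 embryos (adjusted p = 0.0021). Dhdds, which makes the dolichol precursor, rose by 0.58 in siRif1 embryos (adjusted p = 0.0031, edgeR). These were the only calls among 8 isoprenoid genes, 1 in siCon and 2 in siRif1 embryos, where 13.7% and 14.5% of all tested genes were higher. Of 10 SREBP regulators 1 was lower and none higher in siCon embryos, and 1 was higher and 1 lower in siRif1 embryos. Of all tested genes 16.3% and 15.3% were lower in these comparisons. Without siCon 4-cell embryos 3 and 7 no regulator was called in siCon embryos (edgeR). The regulator higher in siRif1 embryos was Rnf139, a ubiquitin ligase of the endoplasmic reticulum, by 0.77 (adjusted p = 0.029, edgeR). Its call was lost without siRif1 8-cell embryo 5, 6 or 9. Npc1, Lss and Rnf139 overlap antisense genes.

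**Figure D5:**
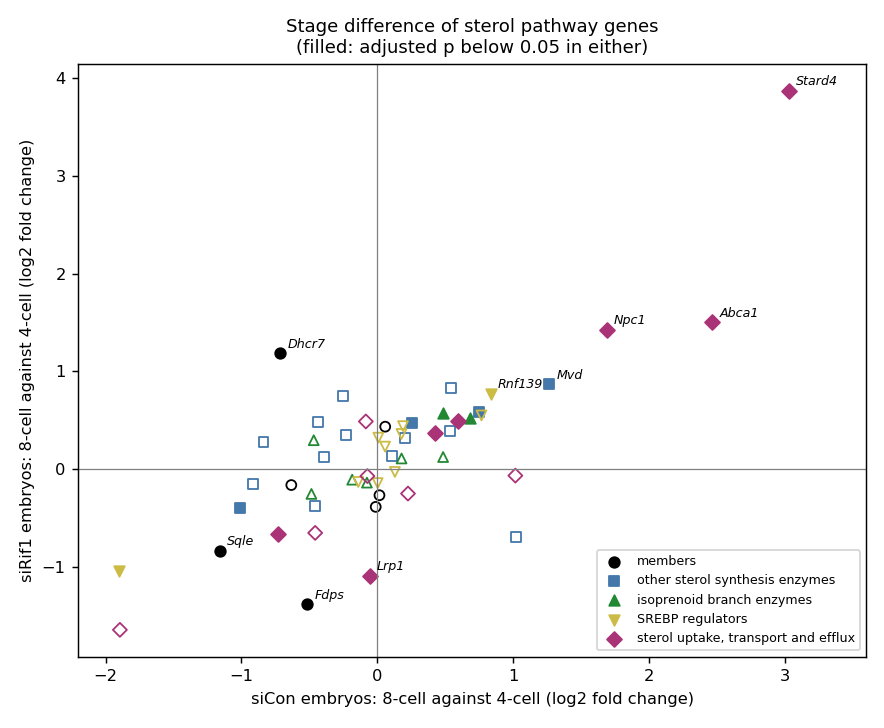
Log2 fold change between 8-cell and 4-cell embryos in siCon (horizontal) and siRif1 (vertical) embryos for the 7 genes and the 4 other lists, with filled symbols for an adjusted p below 0.05 in either. Stard4, Abca1 and Npc1 lie to the upper right and Sqle to the lower left, while Dhcr7 lies at -0.71 in siCon and 1.19 in siRif1 embryos.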

How the data were processed

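RNA of 40 single embryos was sequenced with SMART-seq2, which marks neither strand nor molecules, with ERCC spike-ins in the lysis buffer. The deposited files hold raw read counts per gene, which the authors made with STAR 2.7.6a against GRCm38, as the submitters' processing notes say; the gene annotation they used is not given in the sources here. Both strand columns held about equal counts (49.7% to 51.2%), and the unstranded column was used. The 4 summary entries were left out of library sizes (unmapped reads 5.7% to 39.0%, multimapping 5.0% to 7.1%, no feature 7.3% to 15.4%, ambiguous 1.7% to 4.3% of reads), as were 92 ERCC entries. GENCODE M21 (GRCm38) gave names, positions and exon lengths for 55227 of 55487 mouse entries.

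Counts were tested with edgeR 4.0.16 (robust quasi-likelihood, TMM, filterByExpr with a minimum count of 10, 1 coefficient for each of the 4 groups, all 40 embryos), with Benjamini-Hochberg adjustment over 11844 genes and a threshold of 0.05. The SE is the size of the log2 fold change divided by the square root of F. Log2 CPM used a prior count of 2. The script was checked on simulated counts. Replicate numbers were taken only as names of embryos, and no 2 embryos of a group were alike within sampling noise (lowest chi-square per degree of freedom 7.97). A floor is 3 counts in a library and covers counting error only. Alternatives were DESeq2 size factors, DESeq2 1.42.0, no filter, the compared groups alone, a replicate block, ERCC totals, and leaving out each embryo or siCon 4-cell embryos 3 and 7.

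The 7 genes, the other lists and the alternatives were chosen with earlier results of these data known. Named were the 7 genes, Rif1, up to 8 genes each way past the threshold in the 4 other sterol lists, and the 2 genes most like each member above a mean log2 CPM of 3. Marker genes were used as sums. Nr1h3, given with the alternatives, was named after its values were seen. Some genes that the rule takes are not reported here. Among the genes not tested for low counts were Tm7sf2, Vldlr, Lipa, Abcg1, Ch25h, Cyp27a1 and Gramd1a.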

Additional observations from a re-analysis of the deposited data

How the results depend on the processing

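Numbers of the 7 genes past the threshold. At the 4-cell stage the number between siRNAs was 1 and became 0 under the replicate block, with ERCC totals, without siCon 4-cell embryos 3 and 7, and with the compared groups alone; leaving out 1 embryo gave 0 to 1. Between stages in siCon embryos it was 1, became 0 with ERCC totals and 2 without embryos 3 and 7, and in siRif1 embryos it was 3 and became 1 with ERCC totals and 2 without a filter and with the compared groups alone. At the 8-cell stage and for the interaction it was 0 in every fit that was run. With the compared groups alone Fdps did not pass the filter at the 8-cell stage or between stages in siRif1 embryos and gave no value there. Calls of single genes that were lost were Dhcr7 at the 4-cell stage under the replicate block (-1.11, adjusted p = 0.57), with ERCC totals (-1.39, adjusted p = 0.60) and with the compared groups alone (-1.92, adjusted p = 0.21), and Dhcr7 between stages in siRif1 embryos without a filter (1.16, adjusted p = 0.051). Sqle between stages lost its calls with ERCC totals in siCon (-0.67, adjusted p = 0.27) and siRif1 embryos (-0.33, adjusted p = 0.48), and Fdps in siRif1 embryos (-1.10, adjusted p = 0.084). Rif1 at the 4-cell stage lost its call under the block (-1.23, adjusted p = 0.071), with ERCC totals (-1.10, adjusted p = 0.60), without embryos 3 and 7 (-1.35, adjusted p = 0.051) and with the compared groups alone (-1.27, adjusted p = 0.054), all by edgeR. Same-numbered embryos showed no clear joint deviation (median r -0.01 over 49 pairs, 6 over 0.1, and 4 embryos correlated best with their own number). The numbers were therefore not taken to pair embryos. A shared litter or day behind them could not be checked, because the labels give none.

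Changes of sign, as log2 fold changes. At the 4-cell stage Dhcr7 was 0.27 and Insig1 0.22 without embryos 3 and 7, Idi1 0.034 and Insig1 0.010 under the replicate block, and Insig1 0.18 and Srebf2 0.016 with ERCC totals. At the 8-cell stage Dhcr7 was 0.0060 with DESeq2 size factors, 0.0051 by DESeq2, 0.20 under the block and 0.053 with ERCC totals, and Hmgcs1 was 0.038 under the block and 0.066 with ERCC totals. Between stages in siCon embryos Hmgcs1 was -0.050 with DESeq2 size factors and by DESeq2, -0.054 under the block and -0.037 with the compared groups alone, and Srebf2 was -0.019, -0.019, -0.10 and -0.00080 in the same order. There Dhcr7 was 0.19 with ERCC totals and 1.45 without embryos 3 and 7, and Insig1 was 0.0057 without a filter, 0.53 with ERCC totals and 0.22 without embryos 3 and 7. Between stages in siRif1 embryos Hmgcs1 was 0.32, Idi1 0.44 and Insig1 0.081 with ERCC totals. In the interaction Srebf2 was -0.13 with ERCC totals and Dhcr7 -0.28 without embryos 3 and 7. Leaving out 1 embryo turned the sign within these ranges: at the 4-cell stage Fdps -0.31 to 0.049, Idi1 -0.35 to 0.038 and Insig1 -0.14 to 0.071; at the 8-cell stage Dhcr7 -0.11 to 0.11, Sqle -0.051 to 0.16 and Srebf2 -0.34 to 0.12; between stages in siCon embryos Dhcr7 -0.91 to 0.048, Hmgcs1 -0.099 to 0.14, Insig1 -0.15 to 0.095 and Srebf2 -0.15 to 0.30. The cause of these changes was not tested.

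Over all genes, the 67 calls at the 4-cell stage became 322 without a filter, 180 by DESeq2, 0 under the replicate block, 4 with ERCC totals, 1 without embryos 3 and 7, 2 with the compared groups alone, and 9 to 238 when 1 embryo was left out. Of the genes called between stages, 45.8% were higher at the 8-cell stage in siCon and 48.7% in siRif1 embryos, and with ERCC totals 80.9% and 86.1%; the siCon calls went from 3554 to 2224. With ERCC totals, 1 enzyme, 2 isoprenoid genes, 1 SREBP regulator and 4 transport genes of the other lists were higher in siCon embryos. In siRif1 embryos the counts were 6, 2, 2 and 6, and none was lower in either. The lists kept the tested sizes given above. Most calls over all genes were also higher on that scale (80.9% and 86.1%), so the direction alone does not set the lists apart. More of all tested genes were called higher on that scale in siRif1 than in siCon embryos. The larger list counts in siRif1 embryos therefore do not set the lists apart either. These percentages are shares of the calls and not of the tested genes. The counts were not tested against the share of all tested genes called, so an excess over that background was not shown for any list. Without embryos 3 and 7 Nr1h3 was called lower between stages in siCon (-0.91) and siRif1 (-0.67) embryos. Counts of 0 to 99 reads per embryo for Fdps, Idi1 and Srebf2 limit what could be detected for these genes.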
